A study of Sus scrofa with 13 samples.

Results

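Broad 5-hydroxymethylcytosine (5hmC) regions that were present in every library of the series are described here. They were chosen from the peak lists of 12 libraries: peaks on chromosomes 1 to 18 that shared at least 1 base were merged, and a merged region was kept where it was at least 2000 bases long and overlapped a peak in all 12 libraries. The rule kept 6731 of 395289 merged regions (1.70%), which is 21.0% of the 32032 regions of any length that had a peak in every library. The remaining 25301 shared regions, all under 2000 bases, are called narrow shared regions. Peak presence and merged length chose the regions, so number, length, position and fold are given as a description without a test.

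The cells were mesenchymal stem cells, the adherent stromal progenitors of fat, grown from the abdominal fat of female domestic pigs (Sus scrofa) in medium with platelet lysate. All 12 libraries come from pigs fed a 2% high-cholesterol diet whose fat was taken 3 weeks after a coil had been placed in a renal artery to narrow it, so no library here is from a healthy animal. The 6 hypoxia libraries are from cells kept at 1% oxygen for 48 hours while the 6 normoxia libraries are from cells held at 20% oxygen. Titles begin with a number (110, 16, 21, 33, 49 or 4), and every number occurs with either oxygen level. The labels do not explain the numbers, nor whether libraries come from separate animals, so a p-value covers only the variation among these libraries, part of which may be technical. Numbers 110, 16, 21 and 33 were sequenced in lane 7 and numbers 49 and 4 in lane 8, and each lane holds both oxygen groups.

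5hmC is made when TET enzymes oxidise 5-methylcytosine, the common methyl mark of DNA. Both these enzymes and the prolyl hydroxylases that sense oxygen use molecular oxygen as a substrate. In differentiated cells the mark is known to lie over the bodies of transcribed genes and at enhancers, and to be scarce at unmethylated CpG island promoters. Here DNA was sonicated to short pieces, and those that bound an antibody against 5hmC were sequenced. A broad region is therefore a stretch over which many short captured fragments were called as peaks, not 1 captured molecule.

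The library labelled normoxia 21 stood apart. It had the fewest peaks (100696, against 143515 to 245733 in the other 11), the widest median peak (557 bases, against 258 to 371) and the smallest number of reads in the gene counts. In 2755 of the 6731 regions it held at least 1 peak of 2000 bases or more, against 225 to 703 regions in each other library. When the rule was applied to the other 11 libraries, 4148 regions passed, whereas leaving out any other library gave 6512 to 6748. Of the 6731 regions, 3786 (56.2%) still overlapped a region found without normoxia 21, and 2945 did not. The 3786 had a median length of 2667 bases and the 2945 a median of 2334 bases. Depth over all libraries was 15569948 to 27428482 reads.

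The regions were mostly little longer than the threshold. Their lengths ran from 2000 to 91957 bases with a median of 2489 bases, with the 25th and 75th percentiles at 2206 and 3013 bases. Of the regions, 3406 (50.6%) were under 2500 bases, 187 reached 5000 bases and 14 reached 10000 bases. Together they covered 18.8 Mb, which is 37.7% of all bases in shared regions and 8.52% of all bases under a peak of any library. Of 8286 merged regions of 2000 bases or more, 81.2% had a peak in all 12 libraries. Merging joins the peaks of all libraries, so a region with peaks in more libraries can grow longer. Length and sharing are therefore not independent. Just inside the threshold, at 2000 bases, lay regions on chromosome 1 (11735509 to 11737508, in TIAM2), chromosome 2 (13100413 to 13102412) and chromosome 2 (48015845 to 48017844, in GALNT18). None of these 3 was found without normoxia 21. Just outside it, at 1999 bases, lay shared regions on chromosome 1 (188483683 to 188485681), chromosome 4 (92295591 to 92297589) and chromosome 6 (152932450 to 152934448). The median fold of the 3 inside was 17.1, 7.71 and 8.01, and that of the 3 outside 5.06, 13.9 and 9.89, so the values on either side of the threshold overlapped.

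**Figure D1:**
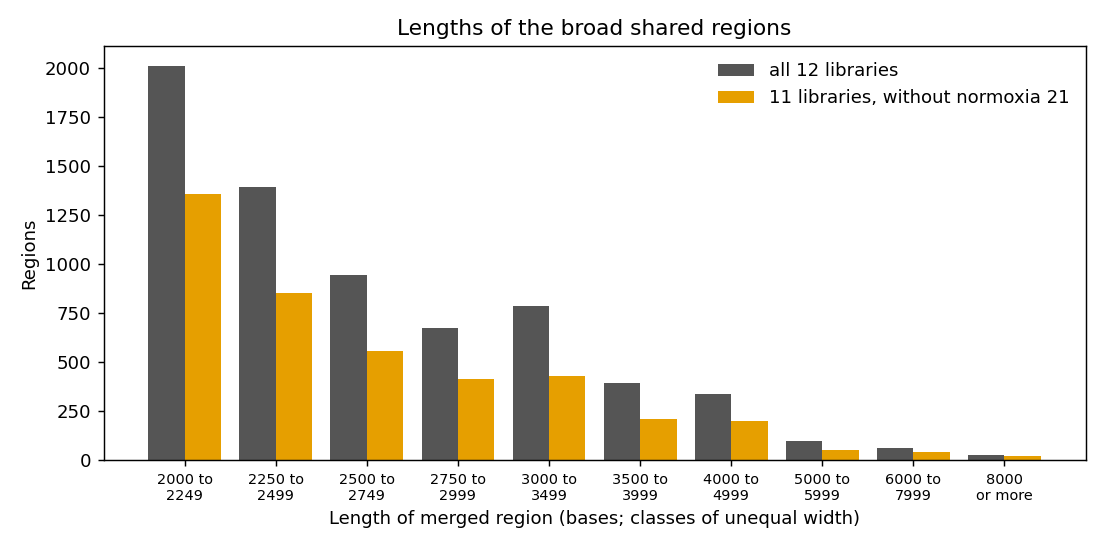
Number of regions (vertical axis) by length class in bases (horizontal axis, classes of unequal width) when the rule was applied to all 12 libraries (grey) and to the 11 libraries other than normoxia 21 (orange). In both, most regions lie near the 2000-base threshold, and the totals are 6731 and 4148.

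In most libraries the regions were called as several peaks. In normoxia 21, 69.2% of the regions held a single peak, and in the other libraries 18.2 to 32.6% did. The regions held 177358 peaks (8.16% of 2173606), with a median of 25 peaks per region over the 12 libraries. In 2793 regions (41.5%) no library had a single peak of 2000 bases or more, and in a further 2105 only normoxia 21 had one. Such a peak was present in at least 2 libraries in 1153 regions, in at least 6 in 253 and in all 12 in 29. The part of a region that lay under peaks of every library was small, with a median of 382 bases or 14.5% of the region, and 877 regions had no base under peaks of all 12 libraries. At least 6 libraries covered a median of 59.7% of a region, and a median of 11.7% lay under a peak of 1 library only. The longest stretch common to all 12 libraries had a median of 302 bases, reached 1000 bases in 233 regions and 2000 bases in 24. In 752 regions (11.2%), at least 50% of the bases were under peaks in every library.

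The longest regions lay mostly outside genes and often at chromosome starts. Of the 10 longest, 5 began within 150 kb of position 1 of their chromosome and 2 overlapped a gene. The longest, 91957 bases on chromosome 13 (49989 to 141945), held 590 peaks. There, the widest single peak ran from 1597 bases in normoxia 49 to 91946 bases in normoxia 21, where 1 peak filled the region. The share of it under peaks ran from 51.1% (normoxia 49) over a median of 76.2% to 100% (normoxia 21), and the oxygen groups overlapped. A region of 25620 bases on chromosome 13 (2867 to 28486) and one of 17749 bases (32129 to 49877) preceded it. The second longest, 35243 bases on chromosome 15 (760 to 36002), varied most, with 9.16% under peaks in normoxia 49 and 9.30% in hypoxia 33 but 100% in normoxia 21. Its next gene was 6.08 kb away.

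The share called varied less in some of the other long regions. A region of 15511 bases on chromosome 6 (63241827 to 63257337), 30.1 kb from SAMD11, was a single peak of 15197 to 15501 bases in 9 libraries and 2 peaks, the wider of 13807 to 14267 bases, in the other 3. It had 96.1 to 99.9% of its bases under peaks and a stretch of 13696 bases common to all 12 libraries, the longest of any region. Its highest fold per library ran from 16.6 over a median of 60.4 to 128. Regions of 23723 bases on chromosome 7 (47197116 to 47220838, in the uncharacterised gene LOC110261710) and 22114 bases on chromosome 4 (1406462 to 1428575, at LY6K, which encodes a GPI-anchored LY6 family protein) were less even, with 78.2 to 99.6% and 35.8 to 96.1% under peaks. The other 3 of the 10 longest were on chromosome 16 (8187 to 24128) and chromosome 8 (53930701 to 53946315 and 54348023 to 54361290). The input sample of the series was not analysed here, so whether extra copies in the genome or reads that map to several places take part in the longest or strongest regions was not tested.

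**Figure D2:**
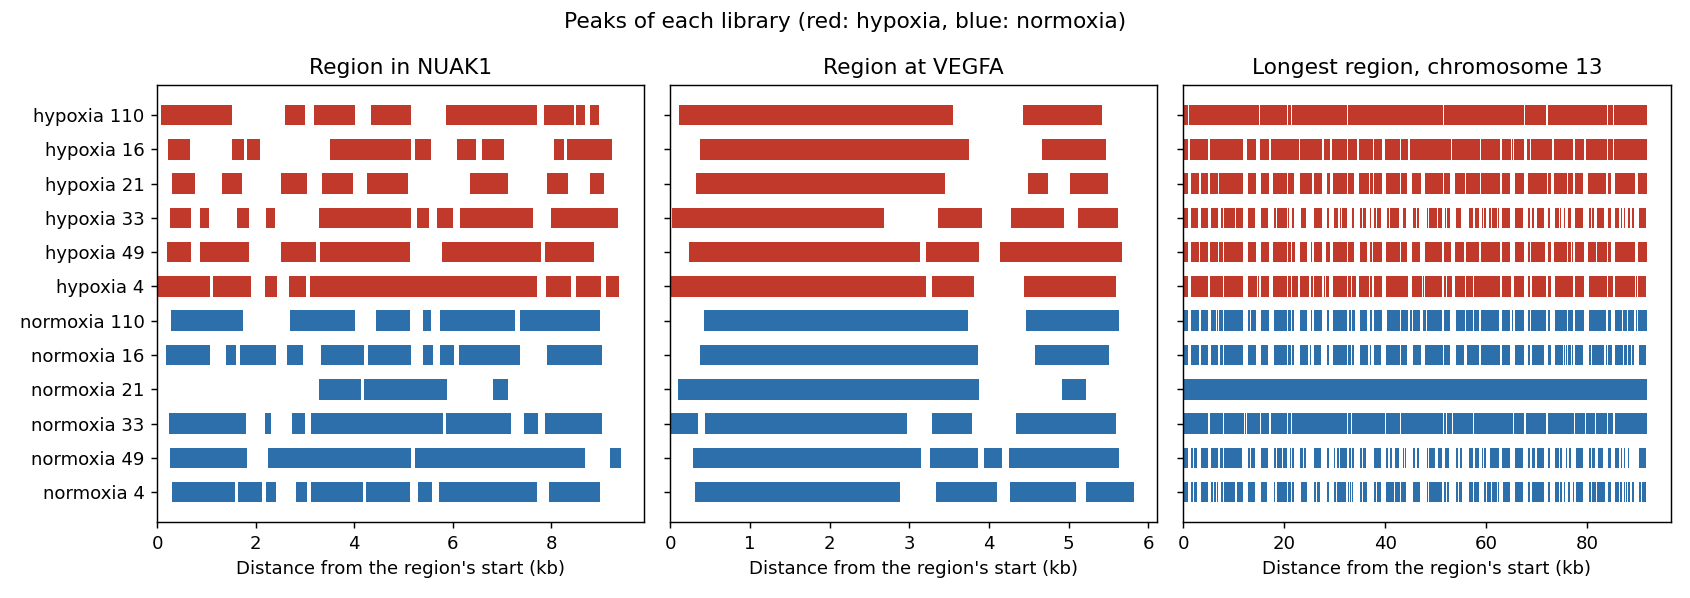
Peaks of each library (bars, 1 row per library, red for hypoxia and blue for normoxia) against the distance from the region's start in kb, for the longest region in NUAK1, the region at VEGFA and the longest region of all. In NUAK1 each library has 3 to 10 separate peaks, at VEGFA every library has a peak of at least 2528 bases, and in the longest region 1 peak of normoxia 21 spans 91946 bases.

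The authors' fold, the enrichment that their peak caller gave each peak, was taken as the highest value in each region for each library and then as the median over libraries. By this measure the regions had a median fold of 11.2, with the 10th and 90th percentiles at 7.53 and 19.0, a lowest value of 4.32 and a highest of 84.1. Narrow shared regions had a median of 8.80. Within each library's own list, the median region's best peak stood at the 86.3th to 91.7th percentile, and that of the narrow shared regions at the 69.3th to 84.8th. A fold of at least 5 in every library was found in 5091 regions (75.6%) and in 48.0% of the narrow shared regions, and a median fold of at least 20 in 538 regions. Longer regions held higher folds: the median went from 10.4 in the shortest class (2000 to under 2500 bases) through 11.2, 12.6 and 15.1 to 17.1 at 6000 bases or more. Since the highest of several peaks is taken, a region with more peaks has more chances of a high value. The share of regions found without normoxia 21 went the same way over these classes, from 44.4% to 98.9%.

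The 5 regions with the highest fold lay outside genes. The highest, 84.1, belonged to a region of 6999 bases on chromosome 6 (163414045 to 163421043), 3.87 kb from SPATA6, a spermatogenesis gene. Its lowest library had a fold of 14.4 and its highest 156, and 89.4 to 100% of it was under peaks. The other 4 had folds of 60.8 to 68.2: chromosome 3 (132840851 to 132844161, 21.3 kb from FAM110C), chromosome 2 (682463 to 686256, 3.11 kb from the mucin gene MUC2), chromosome 2 (1447090 to 1450470) and chromosome 6 (170837766 to 170843409, whose end is the last base under a peak on that chromosome).

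The regions were spread over all 18 autosomes at 2.97 per Mb. The densest were chromosomes 10 (4.25 per Mb), 12 (4.14), 18 (4.09) and 7 (4.03), and the sparsest chromosome 13 (1.95). Chromosome 1 held the most, 686 regions, at 2.50 per Mb. The broad share of shared regions varied from 17.4% on chromosome 13 to 24.4% on chromosome 18. Despite the long regions at some chromosome starts, 1.62% of the regions lay within 1 Mb of a chromosome end, where 1.59% of the span lies. Among 461 bins of 5 Mb the median was 13 regions, 8 bins held none and the fullest, on chromosome 5 (10000001 to 15000000), held 54. The fullest 10% of bins held 24.7% of the regions, and the longest interval without any was 13.1 Mb on chromosome 11 (33144823 to 46253215).

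**Figure D3:**
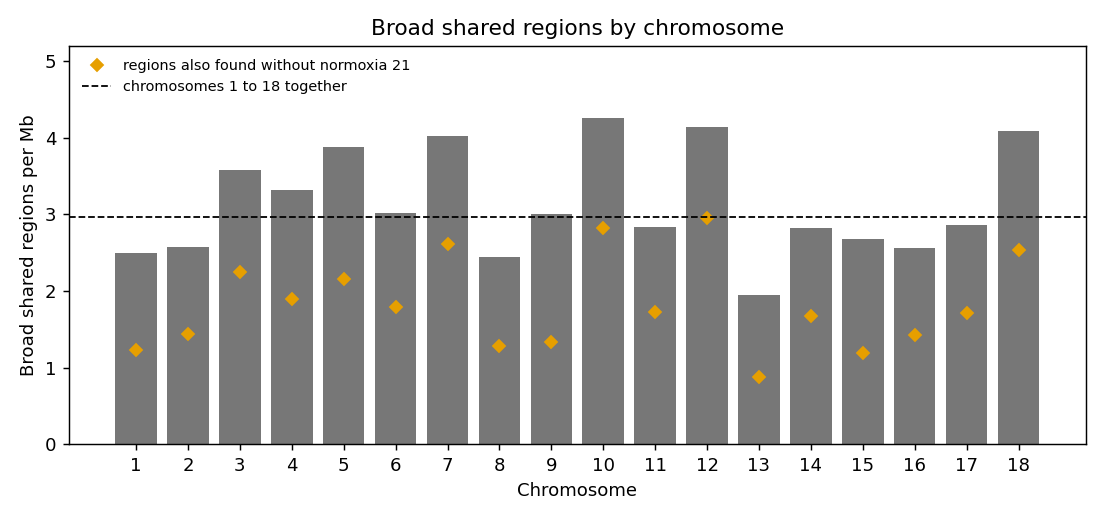
Broad shared regions per Mb (vertical axis, grey bars) on each autosome (horizontal axis), with the rate over all 18 as a dashed line at 2.97 and the regions that were also found without normoxia 21 as orange diamonds. Chromosome 10 is highest at 4.25 per Mb and chromosome 13 lowest at 1.95.

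Neighbouring regions often lay close together. The median distance to the next region was 96.9 kb (25th to 75th percentile 21.1 to 356 kb), 16.6% of distances were 10 kb or less, and 249 were 1 kb or less. Joined across distances of at most 100 kb, 3461 regions (51.4%) fell into 669 clusters of at least 3 regions, of which 56 held 10 or more, and 2074 regions (30.8%) had no neighbour that near. Walking along the shared regions of any length, the next after a broad region was itself broad in 25.3% of cases, and after a narrow one in 19.9%.

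The largest clusters covered single genes or short runs of genes. The largest held 35 regions over 827 kb of chromosome 7 (91851571 to 92678938), in and around RAD51B, a DNA repair gene, ZFP36L1, an mRNA decay factor, and ACTN1, the actin cross-linker alpha-actinin 1. It was followed by 25 regions on chromosome 2 (46902270 to 47412577) over PARVA and MICAL2, which act on focal adhesions and actin, and DKK3. The next held 23 regions on chromosome 14 (135294748 to 135763714) over FANK1 and ADAM12, a metalloprotease of mesenchymal cells. Of the clusters with 20 regions, the pair that comes first by chromosome is given. The first lay on chromosome 6 (69133481 to 69671094) over RERE, the glycolytic enzyme gene ENO1 (0.109 kb of it inside a region), the fructose transporter gene SLC2A5 and H6PD. The other, on chromosome 7 (11376102 to 11582943), lay wholly in JARID2, a subunit of the polycomb repressive complex that methylates histone H3, and 30.7% of its 207 kb was inside regions. Of the regions in these 5 clusters, 28 of 35, 19 of 25, 20 of 23, 15 of 20 and 18 of 20 were found without normoxia 21.

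Genes were placed with RefSeq's table for Sscrofa11.1; that build is not named by the study and was inferred from the files, which give no exons here. The regions lay in genes slightly more often than the genome does: 4567 of them (67.9%) had their centre in a gene and 4086 (60.7%) in a protein-coding gene, where genes cover 56.6% and protein-coding genes 47.7% of the span. Narrow shared regions were nearly the same, with 67.2% and 59.7%. A gene's start or end lay inside 235 regions (3.49%), against 1.85% of the shorter narrow regions. Of 2055 regions outside genes, the median distance to the nearest gene was 20.6 kb, and 252 were over 100 kb away.

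Long genes held a region more often than short ones. A region overlapped 2818 of 26902 placed genes (10.5%) and 2337 of 18722 protein-coding genes (12.5%). Most of the 2818 genes, 1936, held 1 region, 151 held at least 5 and 27 at least 10. By gene length, a region was found in 2.41% of protein-coding genes under 20 kb, 10.2% of those of 20 to 50 kb, 20.0% at 50 to 100 kb, 38.7% at 100 to 300 kb and 55.2% of those of 300 kb or more. Per Mb of gene the difference was smaller and not in 1 direction: 3.22, 3.59, 4.28, 5.00 and 2.81 regions.

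JARID2 had the most bases in broad regions, 63.5 kb in 20 regions or 26.1% of the gene. Next came C10H9orf3 (60.1 kb, 18 regions), ADAM12 (54.6 kb, 18), the ETS-family repressor gene ETV6 (49.5 kb, 14), APBB2 (47.8 kb, 16), RAD51B (46.7 kb, 16) and NPAS2, a circadian transcription factor gene (42.2 kb, 13). NUAK1, a kinase related to AMPK that acts on cell adhesion and myosin phosphatase, held 42.2 kb in only 8 regions, which was 47.9% of the gene, the highest share of these 20 genes. KITLG, the gene of stem cell factor, followed with 40.3% in 10 regions. The other genes among the first 20 were MICAL2, ENOX1, BABAM2, CALD1 (caldesmon), PARVA, LRRC8D, FAM13A, LPAR1 (a lysophosphatidic acid receptor), PDLIM5, FRMD4A and ATXN1. All 20 kept at least 6 of their regions without normoxia 21, JARID2 18 of 20 and NUAK1 8 of 8.

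Within these genes the libraries differed in how much of a region they called. The longest region of NUAK1, 9419 bases on chromosome 5 (14116829 to 14126247), had 29.9% of its bases under peaks in normoxia 21, a median of 71.8% and 88.2% in hypoxia 4. Its highest fold per library ran from 7.07 (normoxia 21) to 32.8 (hypoxia 4), and 14.0% of it was under peaks of every library. Here the library with the widest peaks elsewhere had the least coverage. The longest region of KITLG, 7379 bases on chromosome 5 (94039489 to 94046867), ran from 52.8% over 74.4% to 88.3%, with 36.9% common to all. The longest in JARID2, 6091 bases on chromosome 7 (11388607 to 11394697), ran from 27.2% over 59.8% to 85.9%, and only 2.02% of it was common to all.

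Gene lists chosen for stromal cells differed in how much of their sequence the regions covered. The lists were chosen with earlier results of these data known. Some of their genes, such as CALD1 and PDLIM5, are among those with most bases in regions. The shares of the lists are therefore a description and not an independent result. Over all protein-coding genes, 12.5% held a region, 1.05% of gene bases lay in regions and there were 3.86 regions per Mb of gene. Their median length was 20.7 kb. A region was held by 10.2% of those of 20 to 50 kb and by 20.0% of those of 50 to 100 kb. The actin and adhesion list (median gene length 72.2 kb) had 14 of 23 genes with a region, 7.22% of bases and 21.6 regions per Mb. CALD1 (10 regions), PDLIM5 (11), MYH9, the non-muscle myosin heavy chain gene (6, 31.2% of the gene), and ACTN1 (7, 25.1%) held most. Of the regions in these genes, 9, 11, 6 and 7, in that order, were found without normoxia 21. The TGF-beta and SMAD list (median gene length 93.7 kb) had 12 of 18 genes, 6.64% of bases and 23.2 regions per Mb. It was led by the latent TGF-beta binding protein gene LTBP1 (9) and the ubiquitin ligase gene SMURF1 (8, 23.4% of the gene). The signal transducer gene SMAD3 (6) and the ligand gene TGFB2 (4) followed. Of the regions in these genes, 6, 6, 4 and 2, in that order, were found without normoxia 21.

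Mesenchymal stromal markers (median gene length 43.5 kb) had 5 of 12 genes with a region and 6.85% of bases. Most of that was CD44, the hyaluronan receptor, with 8 regions over 31.2% of the gene, of which 7 were found without normoxia 21. The others were PDGFRA (1), NT5E or CD73 (2), ITGB1 (1) and PDGFRB (1, not found without normoxia 21). The fibrillar matrix list (median gene length 58.9 kb) had 9 of 18 genes and 5.26% of bases. It was led by LOXL2, a collagen cross-linking enzyme (7 regions, of which 4 were found without normoxia 21), and TNC, tenascin C (6, of which 3). COL6A3 (5, of which 3) and COL5A1 (3, of which 3) followed. Hypoxia-inducible factor targets (median gene length 27.5 kb) had 9 of 20 genes and 5.23% of bases. VEGFA and ENO1 were counted for an overlap of only 0.169 and 0.109 kb. More lay in the oxygen sensor gene EGLN1 (2 regions, of which 1 was found without normoxia 21) and NDRG1 (3, of which 3). P4HA2, a collagen prolyl hydroxylase (3, of which 1), and PFKFB4 (2, of which 2) came next. Mesenchymal transcription factors (median gene length 69.4 kb) had 14 of 29 genes and 2.81% of bases. FOXP1 (6), PRRX2 (5, 26.8% of the gene), MEIS1 (4) and TEAD1 (3) led this list. Of the regions in these genes, 4, 5, 4 and 2, in that order, were found without normoxia 21.

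The adipocyte and bone lists lay between these lists and all protein-coding genes in bases covered. The adipocyte list had 3 of 15 genes, 1.86% of bases and 6.35 regions per Mb. These genes were TCF7L2 (6 regions), EBF1 (2, of which 1 was found without normoxia 21) and ADIPOQ, the adiponectin gene (1, not found without it). The bone and cartilage list had 4 of 16 genes, 1.76% of bases and 6.50 regions per Mb. Its genes were RUNX1 (9, of which 5 were found without normoxia 21), RUNX2 (7, of which 6), BMPR1B (2, of which 2) and SOX5 (2, neither found). Of 13 genes of TET, DNMT and related enzymes, 2 had a region, MBD2 (2, of which 1 was found without normoxia 21) and TET3 (1). That list had 1.01% of bases in regions, close to the 1.05% of all protein-coding genes.

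Marker genes of other cell types varied in length and in regions. None of 8 immune, 7 epithelial or 24 HOX genes held a broad region. Their median gene lengths were 23.0, 15.4 and 4.51 kb, against 20.7 kb for all protein-coding genes, so the immune genes were not short. At such lengths 2.41% (under 20 kb) to 10.2% (20 to 50 kb) of all protein-coding genes held a broad region. A narrow shared region lay in 5 of the 8 immune genes, in none of the epithelial genes and in 1 HOX gene, against 6053 of 18722 protein-coding genes. Of 7 endothelial markers, ERG (5 regions, of which 3 were found without normoxia 21) and PECAM1 (1, not found without it) held a region. The endothelial list had 2.51% of bases and 8.32 regions per Mb. Of 11 neuronal genes 7 held a region, among them SYT1 (6, of which 3 were found without normoxia 21) and RBFOX1 (3, of which 1). But the neuronal genes have a median length of 1647 kb and only 0.354% of their bases were in regions. The files hold no RNA, so whether these genes are expressed is not measured, and in a bulk library fewer cells of a type and less signal per cell cannot be told apart.

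**Figure D4:**
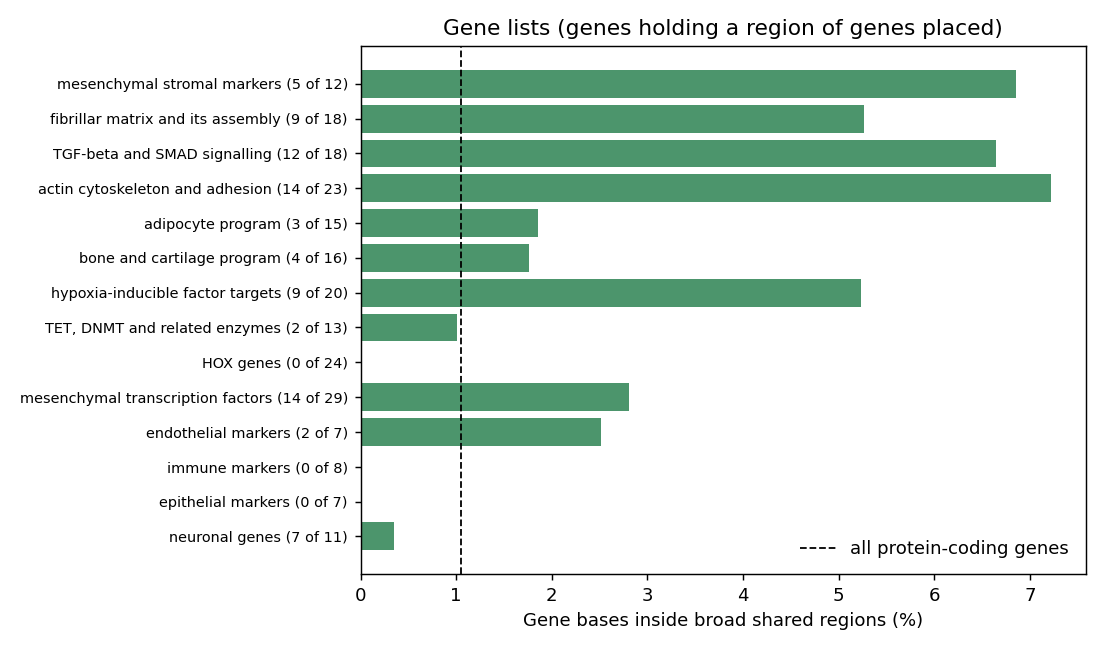
Share of gene bases inside broad shared regions in percent (horizontal axis) for each gene list (bars, with the number of genes holding a region of the number placed), and for all protein-coding genes (dashed line at 1.05%). The actin, stromal marker, TGF-beta, matrix and hypoxia-inducible factor lists lie above 5%, and the immune, epithelial and HOX lists are at 0. The lists were chosen with earlier results of these data known.

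The region at VEGFA, the vascular growth factor gene induced by hypoxia, was 1 of the 29 with a peak of 2000 bases or more in every library. It spans 5823 bases on chromosome 7 (38762114 to 38767936), of which 0.169 kb overlap the gene, and was chosen here after its values were seen. All 12 libraries had a peak of at least 2528 bases in it, its highest fold per library was 19.9 to 54.4 with a median of 31.5, and 39.9% of it was under peaks of every library. In hypoxia 66.0 to 87.5% of it was under peaks (median 75.6%) and in normoxia 69.9 to 86.8% (median 77.9%), so the groups overlapped almost fully. Its difference, hypoxia minus normoxia, was -1.67 percentage points (SE 8.60; limma adjusted p = 1.00).

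The oxygen contrast was first compared over whole libraries. The rule did not use the oxygen labels, but its length threshold acted on the same peaks that give the shares compared here. Of the 6731 regions, 2945 were not found without normoxia 21, a normoxia library. The direction of a difference therefore cannot be told apart from the choice of regions. Of the regions' bases, 48.2 to 63.6% were under peaks in the hypoxia libraries (56.2% ± 5.19, SD, n = 6) and 51.9 to 72.1% in the normoxia libraries (58.7% ± 7.03, n = 6), the highest being normoxia 21. The groups overlapped, and the difference of -2.50 percentage points was within the spread (two-sided exact permutation p = 0.528; adjusted over 3 measures, 0.662). Hypoxia was higher in 2 of 6 numbers for this measure, in 4 for the next and in 3 for the last. Of each library's peak bases, the regions took up 14.1% ± 1.77 under hypoxia against 14.8% ± 3.03 under normoxia (p = 0.662 by the same exact test, adjusted 0.662). Each region held 2.26 ± 0.194 peaks per library under hypoxia against 2.14 ± 0.401 under normoxia (p = 0.610 by the same exact test, adjusted 0.662). With regions merged anew without normoxia 21, these differences were -3.68 percentage points, -0.597 percentage points and -0.0769 peaks (exact permutation p = 0.370, 0.613 and 0.552), the last with the opposite sign. On the 6731 regions as they are, but without normoxia 21, all 3 changed sign, to 0.181 percentage points, 0.0556 percentage points and -0.0300 peaks (exact permutation p = 0.950, 0.970 and 0.797). The differences did not hold across lanes: in lanes 7 and 8 they were -5.70 and 3.91 percentage points, -1.89 and 1.90 percentage points, and 0.201 and -0.0462 peaks. Lane 7 includes normoxia 21 and lane 8 holds only numbers 49 and 4, so lane and single libraries cannot be told apart here.

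**Figure D5:**
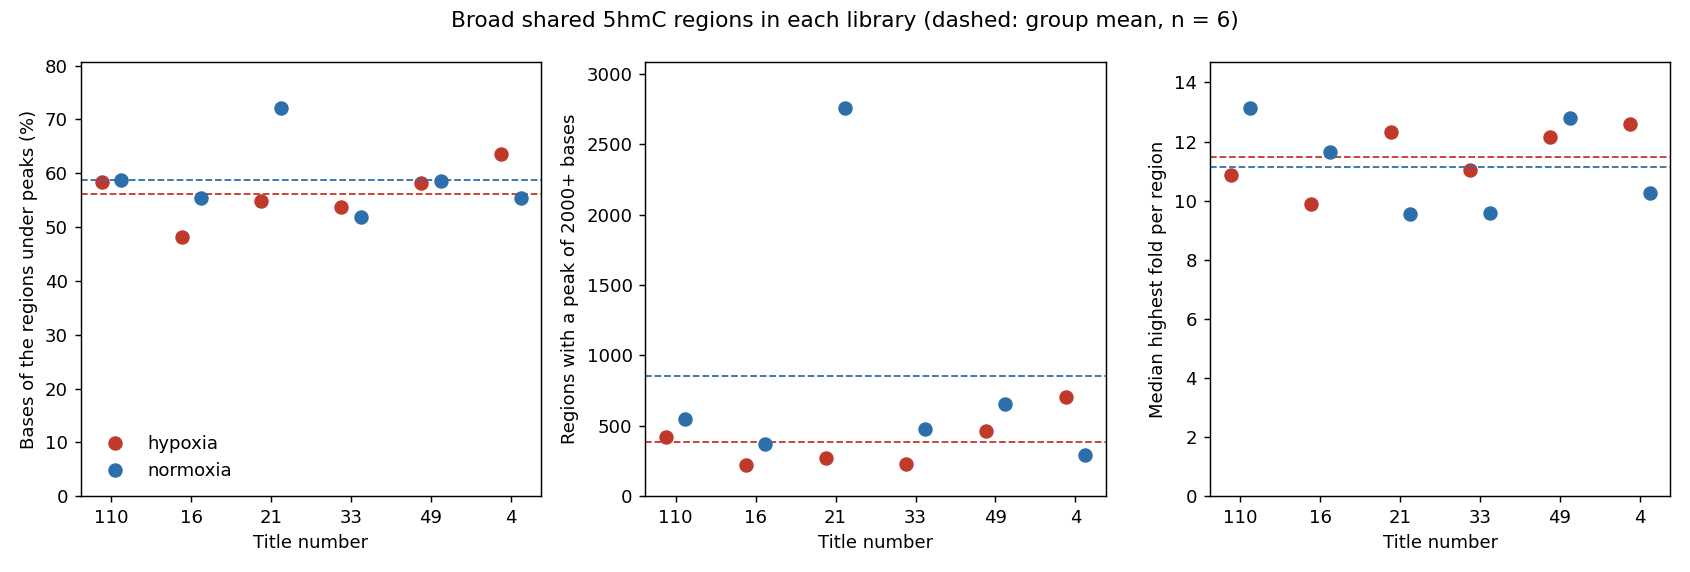
Values of the 6731 regions in each library by title number (horizontal axis; red hypoxia, blue normoxia; dashed lines are group means, n = 6): share of the regions' bases under peaks in percent, number of regions with a peak of 2000 bases or more, and median highest fold. The groups overlap in each panel, and normoxia 21 is highest in the first, at 72.1%, and in the second, at 2755.

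Region by region, no broad region passed the test of its share under peaks in hypoxia against normoxia. In the limma fit over all 32032 shared regions, 0 of the 6731 passed an adjusted p of 0.05 (0.0% of all regions fitted), with or without the title number as a block. At an unadjusted p under 0.05, 19 were higher and 88 lower in hypoxia (over all regions fitted 1.21% higher and 1.39% lower). With the block these were 60 and 256 (all regions 2.69% and 3.17%), and without normoxia 21 they were 403 and 178 (all regions 6.77% and 2.44%). With each library's median share subtracted they were 44 and 100 (all regions 2.09% and 1.42%), and with only peaks of a −log10 q of at least 10 they were 19 and 58 (1.97% and 1.01%), so over all regions the balance of directions changed with the setting. The median difference was -2.53 percentage points over the broad regions and -0.268 over all regions fitted, and without normoxia 21 it was 0.536 and 3.20, so the direction over the broad regions turned on that library.

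The regions with the smallest p, here and in the next paragraph, are given as values, none of which passed the test. Picking them from 6731 by p favours groups that do not overlap and title numbers that agree. How many other regions show this was not counted. The smallest p among regions higher in hypoxia was that of 2244 bases in TPCN1, a two-pore cation channel gene, on chromosome 14 (38715637 to 38717880), with 54.4 to 94.6% under peaks in hypoxia (median 74.0%) and 18.3 to 83.8% in normoxia (median 39.4%). Its groups overlapped through normoxia 21, and its difference was 31.8 percentage points (SE 10.6; limma adjusted p = 1.00, with the block 0.720), in the same direction in 5 of 6 numbers. A region in SLC2A5 on chromosome 6 (69505159 to 69507897) had 34.2 to 70.3% in hypoxia (median 61.2%) and 9.86 to 65.8% in normoxia (median 23.5%), higher in 5 of 6 numbers. This region, too, had its highest normoxia value in normoxia 21, and it was not found without that library. Its difference of 28.8 percentage points was 15.0 with only peaks of a −log10 q of at least 10. A region of 2548 bases in PFKFB3, a hypoxia-inducible activator of glycolysis, on chromosome 10 (64797820 to 64800367) had 16.1 to 90.4% in hypoxia (median 58.3%) and 10.3 to 44.2% in normoxia (median 24.4%). It was higher in hypoxia in 6 of 6 numbers, by 29.7 percentage points (SE 10.6; limma adjusted p = 1.00, with the block 0.720). Only hypoxia 4, where its share was highest, had a peak of 2000 bases or more there (2303 bases). The length rule thus drew on a library of the higher group.

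The smallest p among regions lower in hypoxia was that of 2477 bases on chromosome 7 (40425481 to 40427957), 72.2 kb from RUNX2, the osteoblast transcription factor gene. It had 8.68 to 29.1% under peaks in hypoxia (median 16.6%) and 31.4 to 59.4% in normoxia (median 45.7%), so the groups did not overlap, and it differed by -27.5 percentage points (SE 8.74; limma adjusted p = 1.00, with the block 0.724). It had no base under peaks of all 12 libraries and was not found when the rule was applied without normoxia 21. It thus passed the rule only with a library of the group where it was higher. The separation is therefore not independent of how the regions were chosen. A region in SFRP1, a secreted WNT inhibitor gene, on chromosome 17 (10434965 to 10437508) had 7.94 to 40.4% in hypoxia (median 27.1%) and 21.6 to 92.6% in normoxia (median 68.1%). The groups overlapped there, but hypoxia was lower in 6 of 6 numbers. A region in RHBDD1 on chromosome 15 (128398027 to 128400360) had 29.4 to 68.9% in hypoxia (median 59.1%) and 70.1 to 90.0% in normoxia (median 82.7%), without overlap. With their bounds kept, these 3 regions differed by -39.1 to -26.5 percentage points without normoxia 21.

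The authors' gene counts gave no called difference at genes that hold a broad region. They took in 1.69 to 2.89% of reads, although genes cover 56.6% of the span, so they cannot stand for all reads of the gene bodies in which most regions lie, and the feature that was counted is not named. Of the 2818 genes 2311 passed the filter on low counts, and 0 of them passed edgeR's quasi-likelihood test at an adjusted p of 0.05 (0.0% of 11868 genes tested). With the title number as a block, 0 of 2311 and 4 of 11868 passed (0.0337%). DESeq2 called 0 of these genes. At an unadjusted p under 0.05, 15 were higher and 49 lower in hypoxia (over all genes 0.918% and 1.81%). Scaled only by the summed counts of the genes tested, without edgeR's TMM factors, these were 22 and 24 (all genes 1.34% and 1.04%, the opposite balance). That scaling was chosen after seeing the data and does not use all reads of a library. With the block the numbers were 40 and 148 (all genes 2.6% and 4.49%), and without normoxia 21 they were 42 and 86 (all genes 2.66% and 3.4%). The median log2 fold change of the genes that hold a region was -0.10, with 67.1% of them below 0. That of all genes tested was -0.04, with 56.6% below 0. Scaled by the summed counts alone these were -0.05 and 57.9%, and 0.01 and 48.8%. Among the 20 genes with most bases in broad regions, 18 had a log2 fold change below 0 under either scaling, and the range was -0.68 to 0.01. Leaving out 1 library at a time, this number went from 14 (without normoxia 33) to 20 (without normoxia 21 or normoxia 4). The genes share the same libraries, so they are not separate observations.

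Counts of single genes are given as CPM with edgeR's TMM scaling. This CPM is relative to the reads counted in the genes tested, not to all reads of the library. They are 5hmC reads, not RNA, and only those in the counted features. JARID2 had 771 to 1498 CPM over the 12 libraries (median 1024) and a log2 fold change of -0.08 (SE 0.20). NUAK1 had 401 to 829 CPM (median 532; -0.09, SE 0.21), and KITLG 223 to 503 CPM (median 386; -0.12, SE 0.22). CD44 had 189 to 457 CPM (median 311; -0.24, SE 0.24), and ADAM12 444 to 918 CPM (median 639; 0.01, SE 0.19). The largest difference of the 8 genes followed in this way was that of ETV6, with 71.3 to 275 CPM (median 195) and a log2 fold change of -0.52 (SE 0.24; edgeR adjusted p = 1.00, with the block 0.613). MYH9 (53.1 to 275 CPM; -0.11, SE 0.31) and FHL2 (164 to 337 CPM; -0.23, SE 0.22), both chosen after their regions were seen, did not pass either. FHL2, which encodes a LIM-domain scaffold protein, had 7 regions over 35.1% of its 58.6 kb. This was the most regions per length of any protein-coding gene with at least 5.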

How the data were processed

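DNA from 12 libraries was captured with an antibody against 5hmC and sequenced from both ends, per the labels' protocols. Bowtie2, Picard, MACS2, HTSeq and edgeR are listed in the submitters' processing notes; for versions, build, annotation and any peak-calling control the entry is: not given in the sources used here. For each library, the authors deposited 1 peak list, with a fold enrichment (a ratio), −log10 p and −log10 q values and a score for each peak, and 1 table of raw counts per gene.

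Peaks were merged with Python 3.11.15 and pandas 2.3.3; peaks within a list did not overlap. Share under peaks was computed per region and library and fitted with limma 3.58.1. Gene counts were tested with edgeR 4.0.16 (filterByExpr, minimum count 10, total 15, with TMM). Alternatives were DESeq2, and scaling by the summed counts of the genes tested without TMM. P-values were adjusted by Benjamini-Hochberg over all regions or genes, with a threshold of 0.05. Rows that name no gene held 97.1 to 98.3% of the counted reads and were left out. Gene counts summed to 263578 to 714002 per library; this depth limits the precision of single genes. Both fits were also run on simulated data in which libraries varied independently. In the real data libraries of the same title number varied together, so those runs do not give the power of the tests here. Measures over whole libraries were compared by exact permutation.

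Of 27339 gene symbols, 26838 matched RefSeq's Sscrofa11.1 table. That this is the files' build was inferred: on 18 chromosomes the last peak lies 0.821 to 176 kb from the last gene's end, and over 24329 genes read counts per kb and share under peaks had a Spearman rho of 0.17 with genes in place and -0.086 with genes moved by 1 Mb.

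Libraries that share a title number deviated together (correlation of deviations from group means 0.129 to 0.467 for shares and 0.136 to 0.478 for gene counts, each above the 0.1 asked for), so the number was also fitted as a block. The regions and gene lists were chosen with earlier results of these data known. Regions named were the 10 longest, 5 of highest fold, 3 on either side of the threshold, 5 clusters with most regions and 3 of smallest p per direction. Genes named were those at named regions, the 20 with most bases in regions and up to 4 per list. 1 input sample was not analysed here.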

Additional observations from a re-analysis of the deposited data

Results flagged for a closer look

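Of 78 groups of 6 libraries checked for a library far from the rest, 12 had one, where chance gives about 1 in 20. In 6 of the 12 it was normoxia 21: its share of the regions' bases under peaks (72.1%), its peaks per region (1.39), its number of regions with a peak of 2000 bases or more (2755), its widest peak (91946 bases), its median peak width inside regions (1274.5 bases) and its share of the region near SPATA6 (100%). In that region hypoxia 110 also stood above its group (94.5%). In the region at LY6K, normoxia 33 stood below its group (35.8%).

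For gene reads, hypoxia 4 stood above its group at NUAK1 (802 CPM) and ADAM12 (918 CPM). At ETV6, hypoxia 21 (71.3 CPM) and normoxia 16 (133 CPM) stood below theirs. Whether these go back to the cells or to the libraries was not tested.

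Chromosome X lies outside the rule. It held 161 regions of 2000 bases or more with a peak in all 12 libraries, of 796 shared regions there (20.2%), at 1.28 per Mb and with a median length of 2491 bases. That is a lower density than on any of the 18 autosomes, with nearly the same broad share and length.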

How the results depend on the processing

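The number of regions moved with the settings: 2836 with only peaks of a −log10 q of at least 10, 13487 at 1500 bases or more, 1707 at 3000 bases or more, and 4148 to 6748 when each library was left out in turn (4148 without normoxia 21). It stayed within 1.5 times of 6731 with equal numbers of top peaks (4488) and with peaks merged across up to 100 bases (8108). No alternative made an oxygen difference of these regions pass a test. The share under peaks differed by 3.91 percentage points within lane 8, and the share of peak bases by 1.90. Leaving out 1 library at a time, these differences ranged from -4.01 to -0.990 and from -1.22 to 0.147 percentage points, and that of peaks per region from -0.0769 to 0.199; the sign of the last turned without normoxia 21, that of the peak bases without normoxia 33. On the same regions without normoxia 21, chosen after seeing the data, all 3 changed sign (0.181, 0.0556 and -0.0300). The cause was not tested. With the replicate block (sign flips within title numbers, a two-sided exact test) p was 0.656, 0.719 and 0.469, and the block changed no call at these regions or genes. ADAM12 changed sign with DESeq2 (log2 fold change -0.00020) and MYH9 with the block (0.0032). Leaving out 1 library at a time, log2 fold changes ranged from -0.20 to 0.040 for JARID2, -0.24 to 0.048 for NUAK1, -0.11 to 0.078 for ADAM12 and -0.28 to 0.043 for MYH9. The gene counts hold only 263578 to 714002 reads per library, and peak lists give no reads per region, so the depth behind a region's share is unknown.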
